A study of Rattus norvegicus with 47 samples.

Results

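Rab GTPases are the small GTP-binding proteins that give each intracellular membrane its identity and direct vesicles between them. Their genes were followed here by probe set on expression arrays of rat medial prefrontal cortex. Members were the probe sets whose single gene symbol in the platform annotation is Rab, 1 or 2 digits, then at most 1 letter and 1 further digit, which leaves out Rab-binding proteins that carry Rab in their names. The rule uses no measured value. It found 82 probe sets of 49 genes, among 20249 probe sets that are not controls and 10898 genes named by a single symbol. A filter on low signals (mean log2 signal over all arrays of at least 5.72, the 40th percentile) was passed by 61 of these probe sets, and 41 of the 49 genes passed it with their brightest probe set, the one of highest mean over all arrays, which stands for the gene below. The 8 genes under the filter were Rab3c, Rab3d, Rab13, Rab20, Rab23, Rab27a, Rab30 and Rab32, with group means between 4.04 and 6.04, and none of them was tested.

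All animals were rats of the Wistar strain, reared in social groups (Soc) or in isolation (Iso) and killed at postnatal day 30, 40, 60 or 80 (P30 to P80). The labels name no genotype, drug, sex or batch, and the tissue of every group was freshly dissected, snap-frozen medial prefrontal cortex. The 47 arrays gave 46 samples, 6 in each of 6 groups and 5 in Iso P30 and Iso P40, because a pair of nearly identical Iso P30 arrays was counted as 1 sample (it appears below as the third Iso P30 value). Whether each sample is a different animal is not stated in the labels, so the p-values cover only the scatter among these arrays, part of which may be technical.

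A Rab protein is active while it holds GTP. Exchange factors load the GTP, GTPase-activating proteins end the active state, and the GDP dissociation inhibitors return the prenylated protein to its membrane. In the active state it recruits effectors: tethers, motors and coat adaptors. In neurons Rab3 proteins sit on synaptic vesicles, Rab5, Rab4 and Rab11 govern the uptake and return of receptors, Rab1, Rab2 and Rab6 serve the Golgi, and Rab7 and Rab9 serve late endosomes.

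The arrays had been scaled before deposit, and their trimmed mean signals lay between 156.59 and 161.44. Markers of cortical excitatory neurons were high (Slc17a7 10.30, Nrn1 10.14 and Neurod6 8.94 in mean log2 signal), while Tbr1 (4.86) lay below the filter. The summed signal of these 4 genes did not overlap between rearings at any age: it was 2696 to 2904 in Iso against 3091 to 3340 in Soc at P30, 2524 to 2771 against 2899 to 3309 at P40, 3143 to 3274 against 2732 to 2841 at P60, and 2558 to 2837 against 2853 to 3142 at P80. Of the 3 measured ones, 2 were called lower in Iso at P30, 1 lower at P40, 1 higher at P60, and 1 higher and 2 lower at P80. The sums for interneuron and astrocyte markers lay wholly below Soc in Iso at P30 and P60 and wholly above at P80, that for general neuron markers below at P30, and that for endothelium below at P40 and P60. A sum follows its brightest genes most. At P60, 3 of the 5 measured interneuron markers were called higher in Iso and 2 lower (median difference 0.13). Of the 6 astrocyte markers 0 were called higher and 3 lower at that age. Ttr, a choroid plexus marker, was lower in Iso at P30 (log2 difference -3.11) and higher at P40 (1.97), and the 4 other choroid plexus and ependyma markers lay below the filter. The 6 measured oligodendrocyte markers were all lower in Iso at P40 (summed signal 6448 to 7402 against 7749 to 8696 in Soc). Of 6 measured microglia markers, 4 were lower and 1 higher in Iso at P40 (1180 to 1261 against 1374 to 1562), and 3 were higher and 1 lower at P60 (1030 to 1182 against 939 to 1071). In bulk tissue, fewer cells of a type and less RNA per cell cannot be told apart, and the part of these shifts in the Rab results was not tested.

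The first question was which Rab genes differed between isolation and social rearing at each age. Differences are given as Iso minus Soc on the log2 scale, and a gene was called where the adjusted p was under 0.05 (limma across all 12149 probe sets that passed the filter, Benjamini-Hochberg adjustment). At P30, 14 of 41 genes differed, 4 higher and 10 lower in Iso, beside 19.3% of all genes in either direction, 7.62% higher and 11.7% lower. At P40 there were 11, with 4 higher and 7 lower, beside 24.6% of all genes, 13.7% higher and 10.8% lower. At P60 there were 19, with 12 higher and 7 lower, beside 51.5% of all genes, 21.9% higher and 29.6% lower. At P80 there were 24, with 13 higher and 11 lower, beside 49.5% of all genes, 24.4% higher and 25.1% lower. As shares of the 41 genes these counts are 34.1%, 26.8%, 46.3% and 58.5%, so that at P40, P60 and P80 they lay near the share among all genes. The P30 count was lower with other probe sets standing for each gene: 9 genes with the mean of a gene's probe sets and 8 with its dimmest. The P40 count was 7 without Iso P40 replicate 3 and 7 without Soc P40 replicate 2. The median difference over the Rab genes was -0.03, 0.01, 0.00 and 0.03 at the 4 ages, and over all genes 0.00, 0.02, -0.03 and 0.00. The split by direction depended on the scaling and the probe set. With quantile normalization 8 Rab genes were higher and 7 lower at P30, and 7 and 6 at P40. With the Gapdh ratio (a measure of RNA quality described below) as a covariate these were 5 and 6, and 8 and 8. That ratio did not overlap between rearings at any age, so every fit with it rests on the scatter within groups. With the dimmest probe set of each gene, and also with the mean of its probe sets, 3 were higher and 13 lower at P40, and 21 and 6 at P60.

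The rearing difference depended on age in most Rab genes. An interaction of rearing with age passed in 36 of 41 genes, beside 71.7% of all genes, and the 5 that did not pass were Rab7b, Rab8a, Rab26, Rab27b and Rab35. Between P40 and P60 the difference shifted in 23 genes, upward in 12 and downward in 11, beside 51.5% of all genes, 21.8% upward and 29.7% downward. Averaged over the 4 ages, 14 genes differed, 6 higher and 8 lower in Iso, beside 28% of all genes, 12.6% higher and 15.5% lower. In 4 of the measured genes (Rab7b, Rab26, Rab27b and Rab35) no age passed.

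**Figure D1:**
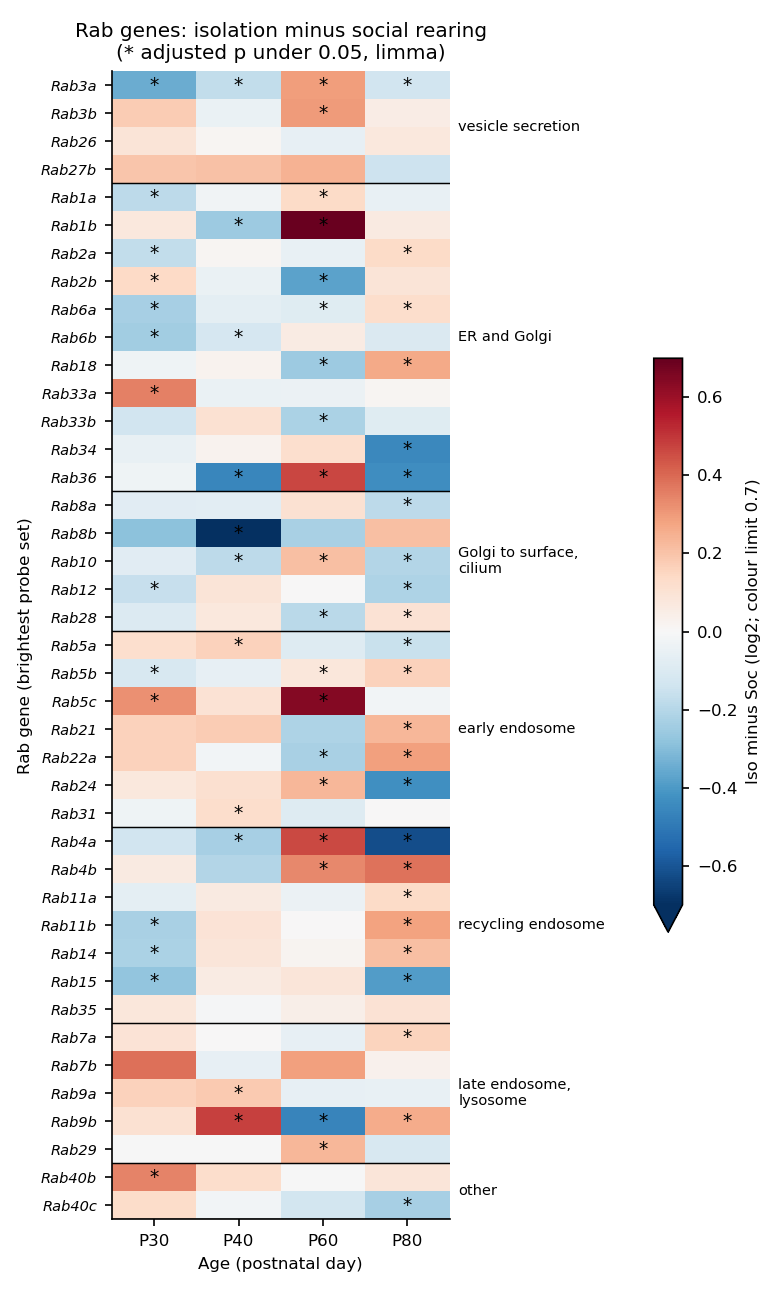
Log2 difference between isolation and social rearing (colour) for the brightest probe set of each of 41 Rab genes (rows, grouped by role) at the 4 ages (columns), with a star where the adjusted p was under 0.05. Rab4a runs from -0.23 at P40 to 0.46 at P60 and -0.62 at P80, and Rab9b from 0.48 to -0.46 and 0.26. Rab8b at P40 (-1.45) lies beyond the end of the colour scale.

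The Rabs of vesicle secretion are described first. Rab3a, the most studied Rab of synaptic vesicles, acts in the docking and release of transmitter. At P30 its brightest probe set ran from 10.63 through a median of 10.68 to 10.77 in Soc, and read 10.27, 10.35, 10.35, 10.35 and 10.42 in Iso. Every Iso sample lay below every Soc sample, a log2 difference of -0.35 (SE 0.052, adjusted p = 3.28e-06). At P40 the Iso samples read 10.48, 10.40, 10.29, 10.46 and 10.53 against 10.50, 10.62 and 10.64 (lowest, median and highest) in Soc, and the groups overlapped (-0.17, SE 0.052, adjusted p = 0.0113; 0.0611 without Iso P40 replicate 3). At P60 the order turned: Soc ran from 10.17 through 10.28 to 10.38 and Iso from 10.50 through 10.55 to 10.70. The groups were apart again, with Iso higher by 0.29 (SE 0.050, adjusted p = 3.46e-06). At P80 Soc ran from 10.51 through 10.57 to 10.71 and Iso from 10.21 through 10.47 to 10.68. These ranges overlapped widely. The difference of -0.13 (SE 0.050, adjusted p = 0.0265) did not pass without Soc P80 replicate 2 (adjusted p = 0.0534), Soc P80 replicate 6 (0.0839), Iso P80 replicate 2 (0.0747) or Iso P80 replicate 4 (0.150), and its sign turned with the Gapdh ratio as a covariate (0.06). The mean over ages was -0.09 (SE 0.026, adjusted p = 0.00701), and it turned to 0.05 with that covariate and to 0.17 on the dimmer probe set. The signs at the 4 ages are those of the summed excitatory neuron markers given above, but other measures did not share them all. The median difference of the 3 measured excitatory markers was -0.21, -0.09, -0.03 and -0.16 at the 4 ages. That of the 5 general neuron markers was -0.12, -0.03, -0.04 and 0.04. The part of such shifts in the Rab3a result was not tested.

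Rab3b, a close relative of Rab3a, was higher in Iso at P60: Soc ran from 7.24 through 7.31 to 7.46 and Iso from 7.50 through 7.62 to 7.75. The groups did not overlap (0.30, SE 0.065, adjusted p = 1.28e-04). At P30 Iso read 7.76, 7.66, 7.69, 7.73 and 7.59 against 7.40, 7.49 and 7.64 in Soc, a difference of 0.18 that did not pass (adjusted p = 0.0581) but passed without Soc P30 replicate 1 (0.0458), Soc P30 replicate 2 (0.0390) or Iso P30 replicate 6 (0.0431). Differences at P40 (-0.05) and P80 (0.05) did not pass either, and the mean over ages was 0.12 (SE 0.033, adjusted p = 0.0053). Rab27b, which docks secretory granules, did not pass at any age (0.19, 0.21, 0.24 and -0.15, adjusted p from 0.115 to 0.366). Its samples lay between 5.29 and 6.73, close to the filter, and its groups overlapped at every age. Rab26, also of secretory granules, did not pass at any age.

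Of the Rabs of the endoplasmic reticulum and Golgi, 11 genes were measured. At P30, 2 of them were higher and 4 lower in Iso, at P40 none was higher and 3 were lower, at P60 3 were higher and 4 lower, and at P80 3 were higher and 2 lower, beside the shares of all genes given above (21.9% higher and 29.6% lower at P60, for example). Rab1b, which carries cargo from the endoplasmic reticulum to the Golgi, showed the widest gap of the measured Rab genes at P60. The name of its brightest probe set ends in _x_at, the suffix that marks possible cross-hybridisation with related sequences. Soc ran from 7.23 through 7.27 to 7.52 and Iso from 7.89 through 7.95 to 8.21, with no overlap (0.69, SE 0.072, 1.62-fold, adjusted p = 5.14e-11). At P40 the Iso samples read 7.71, 7.56, 7.48, 7.88 and 7.68 against 7.71, 7.89 and 8.12 in Soc. Here the groups overlapped and Iso was lower (-0.26, SE 0.076, adjusted p = 0.00866). The shift between these ages was 0.95 (SE 0.11, adjusted p = 2.18e-10). Its 3 dimmer probe sets differed by 1.26, 0.31 and 0.72 at P60, all passing. At P40 they differed by -0.22 (adjusted p = 0.0665), -0.42 (0.0052) and -0.20 (0.0554), so that 1 of the 3 passed.

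Rab2b, of the pathway that returns membrane from the Golgi, rose at each step up to P60 in social rearing, and neither step passed in isolation. Soc group means were 8.39 ± 0.058 at P30, 8.59 ± 0.043 at P40, 8.94 ± 0.054 at P60 and 8.67 ± 0.063 at P80 (SD, n = 6 each), and Iso means were 8.53 ± 0.088, 8.54 ± 0.10 (n = 5 each), 8.57 ± 0.029 and 8.76 ± 0.090 (n = 6 each). At P60 Soc ran from 8.87 through 8.93 to 9.01 and Iso from 8.55 through 8.56 to 8.63, so the groups were apart. The interaction with age had an F of 31.3 (adjusted p = 3.81e-10). Within Soc the rise from P30 to P80 was 0.28 (SE 0.041, adjusted p = 1.38e-07), but its dimmer probe set moved the other way (-0.19, adjusted p = 0.00218). That dimmer probe set was lower in Iso at P60 (-0.22), as the brightest was. It was higher in Iso at P80 (0.57, adjusted p = 2.16e-12), where the brightest did not pass (0.09, adjusted p = 0.0680).

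Rab6a and Rab6b, which act in transport within and out of the Golgi, were both lower in Iso at P30. Rab6a ran from 11.07 through 11.15 to 11.20 in Soc and read 10.92, 10.91, 10.88, 10.99 and 10.89 in Iso. Rab6b, the form enriched in brain, ran from 10.98 through 11.02 to 11.06 in Soc and read 10.77, 10.81, 10.70, 10.76 and 10.86 in Iso. Every Iso sample of either gene lay below every Soc sample, and the differences were -0.23 and -0.24. Over the 4 ages Rab6b averaged -0.10 (SE 0.023, adjusted p = 6.38e-04), a sign that turned to 0.06 (adjusted p = 0.211) with the Gapdh ratio as a covariate. The dimmer probe set of Rab6b was lower in Iso at P80 (-0.42, adjusted p = 2.81e-11), where its brightest did not pass (-0.10, adjusted p = 0.0571). At P60 Rab6a's probe sets were called in opposite directions. The brightest ran from 11.00 through 11.06 to 11.15 in Soc and from 10.90 through 10.97 to 11.10 in Iso, overlapping (-0.09, SE 0.036, adjusted p = 0.0387). The dimmer ran from 7.25 through 7.33 to 7.40 in Soc and from 8.13 through 8.18 to 8.23 in Iso, far apart (0.86, SE 0.050, adjusted p = 6.57e-19). The call of the brightest was lost without any 1 of 8 samples (Soc P60 replicates 4, 5 and 6, Iso P60 replicates 1, 2, 3, 5 and 6; adjusted p up to 0.104), and its sign turned to 0.16 with the Gapdh ratio as a covariate.

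Rab36, a Golgi Rab related to Rab34, alternated: it was lower in Iso at P40, higher at P60 and lower at P80. At P40 Iso read 5.86, 5.73, 5.72, 5.91 and 6.11 against 6.14, 6.29 and 6.51 in Soc (-0.46, SE 0.099, adjusted p = 4.02e-04). At P60 Soc ran from 5.67 through 5.78 to 5.93 and Iso from 6.14 through 6.25 to 6.35 (0.47, SE 0.094, adjusted p = 4.59e-05). At P80 Soc ran from 5.95 through 6.01 to 6.35 and Iso from 5.40 through 5.70 to 5.83 (-0.43, SE 0.094, adjusted p = 1.62e-04). The groups did not overlap at any of these 3 ages. With the Gapdh ratio as a covariate the P60 difference was 0.43, close to the 0.47 without it, but it no longer passed (adjusted p = 0.163). Rab34, known for its part in cilium formation, was lower in Iso at P80: Soc ran from 6.44 through 6.57 to 6.74 and Iso from 5.89 through 6.12 to 6.30. The groups were apart (-0.45, SE 0.077, adjusted p = 3.72e-06), and with the covariate the difference was -0.21 (adjusted p = 0.0959). Rab33a, a Golgi Rab of neural and immune cells, was higher in Iso at P30, where Iso read 7.74, 7.69, 7.40, 7.64 and 7.85 against 7.18, 7.29 and 7.49 in Soc. A single Iso value lay within the Soc range (0.35, SE 0.099, adjusted p = 0.0079). Of the other Golgi genes, Rab18 was lower at P60 (-0.26) and higher at P80 (0.26), Rab33b was lower at P60 (-0.22), Rab1a was lower at P30 (-0.18) and higher at P60 (0.13), and Rab2a was lower at P30 (-0.17) and higher at P80 (0.13).

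Among the 5 measured Rabs of traffic from the Golgi to the cell surface and the cilium, Rab8b moved farthest. Rab8b shares with Rab8a a role in exocytosis and cilium formation. Soc at P40 ran from 5.89 through 6.20 to 6.52. Iso at P40 read 5.92, 6.43, 4.02, 3.62 and 3.80, so 3 samples lay far below every Soc sample and the other 2 within the Soc range. The mean difference was -1.45 (SE 0.31, adjusted p = 3.14e-04) and ran from -1.87 to -1.17 when single samples were left out. The 3 low values are under the signal filter, and on the scale of log2(signal + 16) the difference was -0.96. Within Iso the fall from P30 to P40 was -1.14 (SE 0.32, adjusted p = 0.00762), which did not pass without Iso P40 replicate 4 (-0.85, adjusted p = 0.0550) or with the Gapdh covariate (0.303), and the rise from P40 to P60 was 1.76 (SE 0.31, adjusted p = 1.19e-05).

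Rab10, which brings vesicles to the growing axon membrane and the glucose transporter to the surface of fat cells, was lower in Iso at P40 (-0.18), higher at P60 (0.21) and lower at P80 (-0.20). At P40 Iso read 9.21, 9.16, 9.16, 9.07 and 9.07 against 9.24, 9.29 and 9.45 in Soc, and at P60 Soc ran from 9.07 through 9.20 to 9.29 and Iso from 9.34 through 9.39 to 9.52. The groups were apart at both ages. The shift between P40 and P60 was 0.39 (SE 0.053, adjusted p = 2.38e-08), but with the Gapdh ratio as a covariate it was 0.22 (adjusted p = 0.164). Rab12, of traffic from recycling endosomes to lysosomes, was lower in Iso at P30 (-0.16) and P80 (-0.21). Its mean over the 4 ages was -0.07 (SE 0.017, adjusted p = 0.0021), a call absent with the mean of its probe sets (adjusted p = 0.298) or the dimmer one (0.643). Rab28, linked to cilia, was lower at P60 (-0.19) and higher at P80 (0.10), and Rab8a was lower at P80 (-0.18).

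Rab5c stands out among the 7 measured Rabs of early endosomes, where Rab5 proteins drive the fusion of incoming vesicles. At P30 its Iso samples read 7.29, 7.43, 7.49, 7.45 and 7.42 against 6.79, 7.16 and 7.21 in Soc (0.32, SE 0.071, adjusted p = 8.77e-04). At P60 Soc ran from 6.41 through 6.49 to 6.69 and Iso from 6.99 through 7.15 to 7.38 (0.64, SE 0.068, 1.56-fold, adjusted p = 7.72e-11). In both comparisons every Iso sample lay above every Soc sample. Its mean over ages was 0.26 (SE 0.035, adjusted p = 1.21e-07). Within Soc it rose by 0.39 (SE 0.068) from P30 to P40, then fell by 0.96 (SE 0.068, adjusted p = 5.98e-16) from P40 to P60 and rose again by 0.52 (SE 0.068, adjusted p = 2.25e-08) from P60 to P80. Within Iso the change from P40 to P60 was -0.42 (SE 0.071, adjusted p = 5.69e-06; 0.0926 with the Gapdh covariate).

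Rab5a had probe sets called in opposite directions at P40. The brightest read 9.62, 9.56, 9.42, 9.38 and 9.18 in Iso against 9.07, 9.30 and 9.33 in Soc, overlapping (0.16, SE 0.060, adjusted p = 0.0362). The dimmer differed by -0.44 (SE 0.074, adjusted p = 9.41e-06). The call of the brightest was lost without Soc P40 replicate 2 (adjusted p = 0.128), Iso P40 replicate 1 (0.164), replicate 2 (0.123) or replicate 3 (0.0560). At P80 the brightest probe set of Rab5a was lower in Iso (-0.15, adjusted p = 0.0242), and the dimmer one differed by -0.02 with no call. Rab5b was lower in Iso at P30 (-0.11) and higher at P60 (0.08) and P80 (0.16). Rab24, an unusual Rab tied to autophagy, was higher in Iso at P60 and lower at P80. At P80 Soc ran from 8.07 through 8.13 to 8.40 and Iso from 7.59 through 7.76 to 7.88. These groups did not overlap (-0.43, SE 0.058, adjusted p = 4.36e-08). Within Soc Rab24 rose by 0.60 (SE 0.058, adjusted p = 7.52e-12) from P60 to P80 and by 0.55 (SE 0.058, adjusted p = 5.62e-11) from P30 to P80, while the Iso means lay between 7.70 and 7.88 at all ages. Rab22a was lower in Iso at P60 (-0.23) and higher at P80 (0.29), Rab21 was higher at P80 (0.23), and Rab31 was higher at P40 (0.12).

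The recycling endosome held the Rab gene with the largest interaction of rearing with age. Rab4a, which sends internalised receptors back to the surface by the fast route, had an interaction F of 73.7 (adjusted p = 7.73e-16). Rab9b, a Rab of the route from late endosomes to the Golgi, came next with 58.6 (adjusted p = 3.20e-14). The promoters of these 2 genes and of Rab3a are printed because their rearing differences turned sign between P40 and P60, Rab9b in the direction opposite to the others. The windows come from RefSeq on the rat assembly GRCr8 and hold 250 bases before and 50 after the gene's start, on the gene's strand. They lie at chr19:68692831-68693130 (plus strand, Rab4a), chrX:105023823-105024122 (minus strand, Rab9b) and chr16:18722224-18722523 (minus strand, Rab3a). Capitals mark matches on either strand to the GC box GGGCGG or to the CCAAT box.
Rab4a: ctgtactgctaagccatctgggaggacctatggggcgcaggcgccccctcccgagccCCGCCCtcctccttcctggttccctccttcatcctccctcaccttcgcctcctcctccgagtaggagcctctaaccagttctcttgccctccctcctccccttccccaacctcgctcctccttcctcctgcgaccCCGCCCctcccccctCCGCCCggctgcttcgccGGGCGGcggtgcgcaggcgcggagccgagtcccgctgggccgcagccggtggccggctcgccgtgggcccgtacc
Rab9b: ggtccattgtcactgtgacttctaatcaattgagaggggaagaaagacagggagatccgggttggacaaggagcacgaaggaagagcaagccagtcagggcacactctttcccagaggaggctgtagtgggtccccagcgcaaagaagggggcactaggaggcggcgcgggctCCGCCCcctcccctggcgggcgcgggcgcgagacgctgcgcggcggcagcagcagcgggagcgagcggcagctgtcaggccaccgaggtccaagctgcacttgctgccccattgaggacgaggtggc
Rab3a: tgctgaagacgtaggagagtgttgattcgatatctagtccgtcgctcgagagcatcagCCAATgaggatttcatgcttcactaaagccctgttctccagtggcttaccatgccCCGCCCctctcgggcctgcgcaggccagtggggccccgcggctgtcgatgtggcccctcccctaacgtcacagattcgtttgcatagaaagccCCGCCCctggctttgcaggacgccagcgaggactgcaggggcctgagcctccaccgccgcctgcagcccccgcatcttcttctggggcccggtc
The Rab4a window holds 4 GC boxes, that of Rab9b 1, and that of Rab3a 2 with 1 CCAAT box. Of the 41 measured Rab genes 33 had a window, and Rab1b, Rab2a, Rab2b, Rab22a, Rab24, Rab26, Rab33a and Rab36 had none. A GC box was found in 29 of the 33 (87.9%), in 66% of the 6643 windows of measured genes and in 33.1% of all 33469 windows. The Rab windows and those of measured genes were alike in CpG content (medians of 23 and 22), while the median over all windows was 7. A CCAAT box was in 15 Rab windows (45.5%), against 38.1% for measured genes and 37.5% of all. The letters TATAAA were in 0 of the Rab windows, 6.19% of those of measured genes and 14.2% of all, and the cyclic AMP response element TGACGTCA in 0, 3.51% and 1.83%. No motif overlapped another in the 3 printed windows.

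Rab4a was lower in Iso at P40, where Iso read 8.06, 8.03, 8.20, 8.17 and 8.04 against 8.22, 8.33 and 8.45 in Soc (-0.23, SE 0.055, adjusted p = 9.47e-04). At P60 Soc ran from 7.68 through 7.78 to 7.82 and Iso from 8.13 through 8.21 to 8.35 (0.46, SE 0.052, 1.38-fold, adjusted p = 3.62e-10). At P80 Soc ran from 8.30 through 8.36 to 8.43 and Iso from 7.61 through 7.76 to 7.86 (-0.62, SE 0.052, adjusted p = 1.32e-13). The groups were fully apart at these 3 ages, and the direction turned at each. At P30 the difference was -0.13 and did not pass. In Soc the level fell to P60 and returned, with a rise of 0.59 (SE 0.052, adjusted p = 5.14e-13) from P60 to P80. In Iso it changed by -0.49 (SE 0.052, adjusted p = 8.19e-11) over the same step. Its mean over ages was -0.13 (SE 0.027, adjusted p = 1.92e-04).

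**Figure D2:**
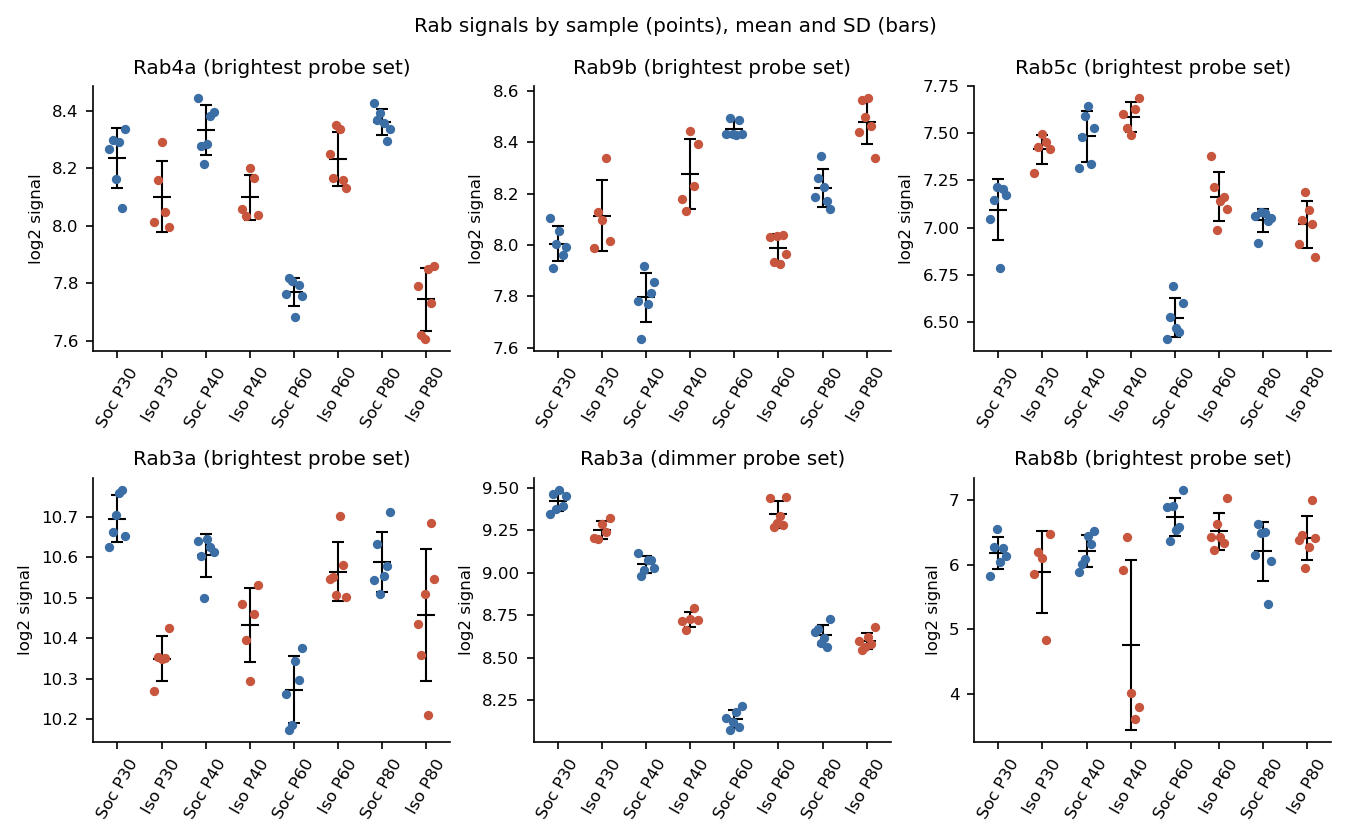
Log2 signal of each sample (points; blue Soc, red Iso) with group mean and SD (black bars) for 6 Rab probe sets, by group. Rab4a and Rab9b turn direction between ages with no overlap at P40 and P60, Rab3a's dimmer probe set separates Soc P60 (8.07 to 8.22) from Iso P60 (9.27 to 9.45), and 3 of 5 Iso P40 samples of Rab8b lie at 4.02 or below.

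Rab4b, the paralog of Rab4a, did not share its fall at P80: it was higher in Iso at P60 (0.34) and at P80 (0.38). Within Iso it changed by -0.36 (SE 0.12, adjusted p = 0.0252) from P30 to P40, and this did not pass without Iso P40 replicate 5 (-0.20, adjusted p = 0.189), without Iso P30 replicate 3 (-0.30, adjusted p = 0.0890) or with the Gapdh covariate (-0.11, adjusted p = 0.816). Rab15, a Rab of neural recycling endosomes, was lower in Iso at P30 and at P80. At P30 Iso read 9.20, 9.38, 9.38, 9.51 and 9.53 against 9.57, 9.64 and 9.87 in Soc (-0.28, SE 0.070, adjusted p = 0.00356). At P80 Soc ran from 9.39 through 9.45 to 9.59 and Iso from 8.97 through 9.01 to 9.34 (-0.39, SE 0.067, adjusted p = 3.78e-06). The groups were apart in both comparisons, yet neither passed with the Gapdh ratio as a covariate (adjusted p = 0.228 and 0.0696), and its dimmer probe set differed by 0.14 and 0.03 with no call.

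Rab11a and Rab11b, of the slow recycling route, were higher in Iso at P80 (0.13 and 0.28), and Rab11b was lower at P30 (-0.23). Both declined with age in Soc: from P30 to P80 Rab11a changed by -0.24 (SE 0.031, adjusted p = 1.23e-08) and Rab11b by -0.25 (SE 0.041, adjusted p = 1.76e-06). Rab11a's dimmer probe set rose over that step (0.27, adjusted p = 0.00447). Rab14, between the Golgi and endosomes, was lower in Iso at P30 (-0.22). At P80 its brightest probe set ran from 8.91 through 8.97 to 9.15 in Soc and from 9.15 through 9.20 to 9.31 in Iso, overlapping at the edge (0.21, SE 0.058, adjusted p = 0.0026). Of its 3 dimmer probe sets 2 were called the other way (-0.22, adjusted p = 0.00622, and -0.31, adjusted p = 0.0160). Rab35, also of fast recycling, passed at no age.

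Rab9b mirrored Rab4a in sign at P40, P60 and P80. At P40 Iso read 8.18, 8.13, 8.44, 8.23 and 8.39 against 7.64, 7.80 and 7.92 in Soc (0.48, SE 0.054, 1.39-fold, adjusted p = 1.93e-09). At P60 Soc ran from 8.43 through 8.43 to 8.50 and Iso from 7.92 through 7.9999 to 8.04 (-0.46, SE 0.052, adjusted p = 3.14e-10). At P80 Soc ran from 8.14 through 8.21 to 8.35 and Iso from 8.34 through 8.48 to 8.57, a difference of 0.26 with ranges that met. The groups were apart at P40 and P60. The shift between those ages, -0.94 (SE 0.075, adjusted p = 1.48e-14), had the smallest p of the Rab genes for that comparison. In Soc it rose by 0.66 (SE 0.052, adjusted p = 2.08e-14) from P40 to P60, and in Iso by 0.49 (SE 0.052, adjusted p = 6.16e-11) from P60 to P80. Its relative Rab9a was higher in Iso at P40 (0.18) and did not pass at the other ages. Rab7a, which directs late endosomes to lysosomes, was higher at P80 (0.15), and Rab29, a partner of the Parkinson kinase LRRK2, at P60 (0.23). Outside these roles, Rab40b, which joins a ubiquitin ligase, was higher in Iso at P30, where Iso read 8.56, 8.61, 8.63, 8.50 and 8.48 against 8.03, 8.24 and 8.37 in Soc. Every Iso sample lay above the Soc range (0.35, SE 0.072, adjusted p = 4.11e-04). Rab40c was lower at P80 (-0.23).

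The second question was how Rab genes changed between ages within each rearing. In Soc, 15 genes changed from P30 to P40, 4 up and 11 down, beside 24.5% of all genes (12.9% up, 11.5% down). From P40 to P60 there were 25, 9 up and 16 down, beside 52.5% (28.1% up, 24.4% down). From P60 to P80 there were 20, 12 up and 8 down, beside 46.1% (22.3% up, 23.8% down), and from P30 to P80 23, 10 up and 13 down, beside 47.1% (26.4% up, 20.7% down). In Iso 11 changed from P30 to P40, 6 up and 5 down, beside 18% (12.4% up, 5.61% down). From P40 to P60 there were 15, 6 up and 9 down, beside 30.7% (12.5% up, 18.3% down). From P60 to P80 there were 20, 11 up and 9 down, beside 52.3% (28.5% up, 23.8% down), and from P30 to P80 25, 12 up and 13 down, beside 46.3% (26.7% up, 19.6% down). With quantile normalization the split was 4 up and 6 down from P30 to P40 in Soc, and 7 up and 15 down from P30 to P80 in Iso. With the mean of a gene's probe sets it was 15 up and 7 down from P40 to P60 in Iso, 6 up and 17 down from P60 to P80, and 6 up and 21 down from P30 to P80. The Iso count from P30 to P40 was 7 without Iso P40 replicate 4, 21 with the dimmest probe set of each gene and 22 with the mean of its probe sets. Each age step shares its samples with the rearing comparisons, so these counts are not independent of those above.

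From P40 to P60 in Soc the falls included Rab5c (-0.96), Rab1b (-0.61), Rab7b (-0.61, SE 0.15, adjusted p = 7.80e-04), Rab4a (-0.56) and Rab36 (-0.54). Rab7b is a Rab of late endosomes and the Golgi, and it ran from 5.80 through 5.98 to 6.55 at P40 and from 5.10 through 5.43 to 5.73 at P60. The groups did not overlap, but the P60 values lie near the filter. Rab3a, Rab3b and Rab27b were each lower at P60 than at P40 in Soc (a log2 change of -0.33 in each; adjusted p = 3.31e-07, 3.19e-05 and 0.0322), and the groups overlapped in Rab27b. From P30 to P40 in Soc Rab33a rose by 0.42 (SE 0.094, adjusted p = 6.87e-04) and Rab40b by 0.28 (SE 0.069, adjusted p = 0.00148). From P30 to P80 in Iso Rab28 rose by 0.33 (SE 0.038, adjusted p = 7.44e-10) and Rab9b by 0.37 (SE 0.054, adjusted p = 2.73e-07). Over the same interval Rab36 changed by -0.65 (SE 0.099, adjusted p = 4.08e-07) and Rab4a by -0.36 (SE 0.055, adjusted p = 4.93e-07). Rab36 in Iso changed by -0.44 (SE 0.10) from P30 to P40, 0.38 (SE 0.099) from P40 to P60 and -0.60 (SE 0.094) from P60 to P80, and with the Gapdh covariate the first 2 of these did not pass (adjusted p = 0.177 and 0.206).

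**Figure D3:**
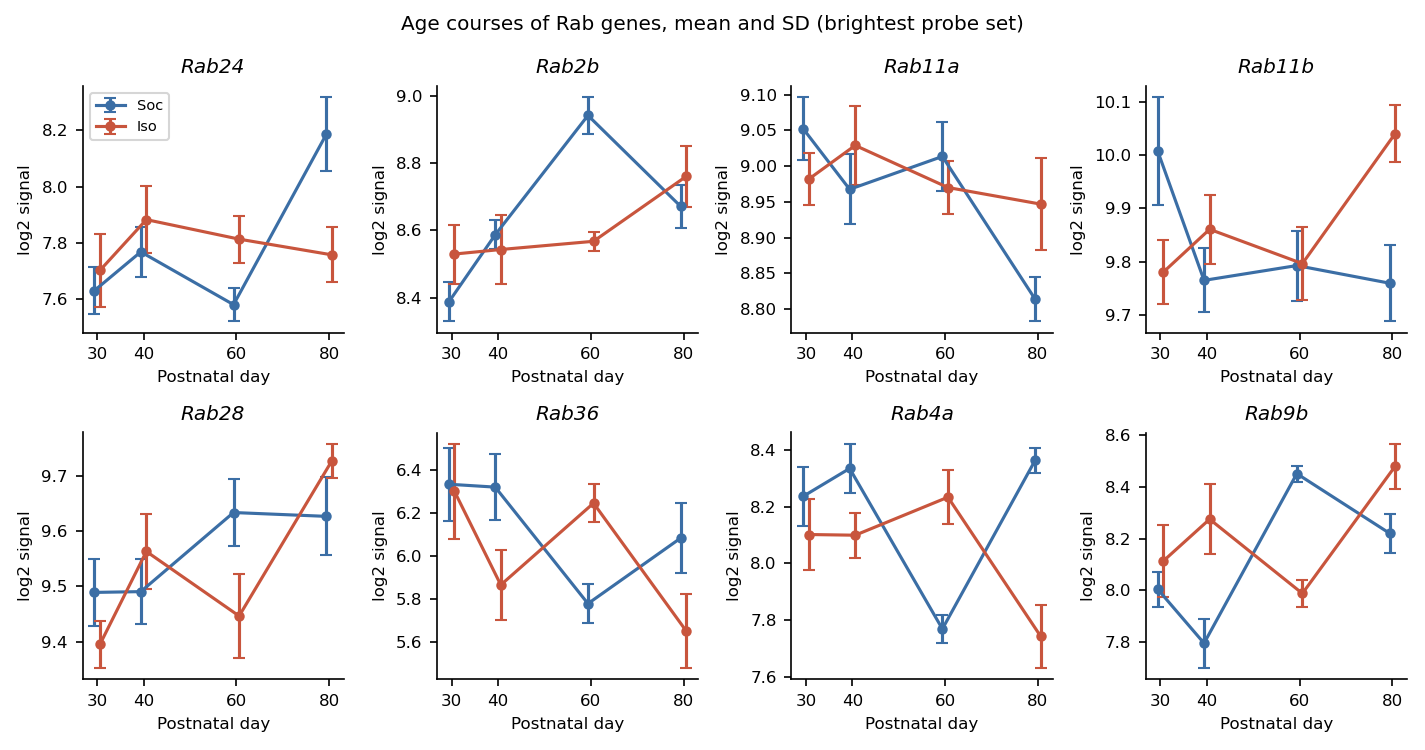
Group mean log2 signal with SD (bars) against postnatal day for 8 Rab genes, in social (blue) and isolation rearing (red), 5 or 6 samples a group. Rab24 rises to 8.19 at P80 in Soc and stays between 7.70 and 7.88 in Iso, and Rab4a and Rab9b cross between rearings at successive ages.

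The third comparison was between probe sets of the same gene. In 15 Rab genes several probe sets passed the filter, giving 20 dimmer ones beside the brightest. At P40 the dimmer probe sets were lower in Iso and at P60 higher, while the brightest ones of the same genes had medians near 0. At P40, 14 of 20 dimmer probe sets were called lower and 0 higher (median -0.41 against 0.01 for the brightest), beside 36.3% lower and 6.44% higher among the dimmer probe sets of all genes. At P60, 18 of 20 were called higher and 1 lower (median 0.56 against 0.00), beside 44.3% and 16% of all dimmer probe sets. Within genes, the dimmer lay below the brightest in 15 of 20 pairs at P40 and above it in 18 of 20 at P60. Over the 1709 pairs of all genes it lay above in 28.1% at P40 and in 73.1% at P60, so the tilt is shared by the whole table. At P30 the pairs divided 10 to 10, and at P80 6 dimmer probe sets lay above and 14 below. Several pairs share a gene, and all share their samples.

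The dimmer probe set of Rab3a shows the size of this. At P60 Soc ran from 8.07 through 8.13 to 8.22 and Iso from 9.27 through 9.31 to 9.45 (1.21, SE 0.035, 2.31-fold, adjusted p = 2.13e-30). At P40 Iso read 8.71, 8.67, 8.73, 8.79 and 8.72 against 8.98, 9.05 and 9.12 in Soc (-0.32, SE 0.037, adjusted p = 2.56e-09). The groups were apart at both ages, and at P60 the gap was 0.91 wider than on the brightest probe set. Rab6a's dimmer probe set read 6.63, 6.85, 6.55, 6.38 and 6.76 in Iso at P40 against 7.41, 7.53 and 7.56 in Soc (-0.88, SE 0.053, adjusted p = 3.69e-18), with no overlap. Rab5b's dimmest probe set above the filter differed by -0.68 at P40 and 1.14 at P60, that of Rab11b by -0.34 and 1.10, that of Rab12 by -0.49 and 0.91, and that of Rab7a by -0.60 and 0.73. Exceptions at P60 were Rab11a (-0.13, no call) and Rab2b (-0.22, called lower).

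**Figure D4:**
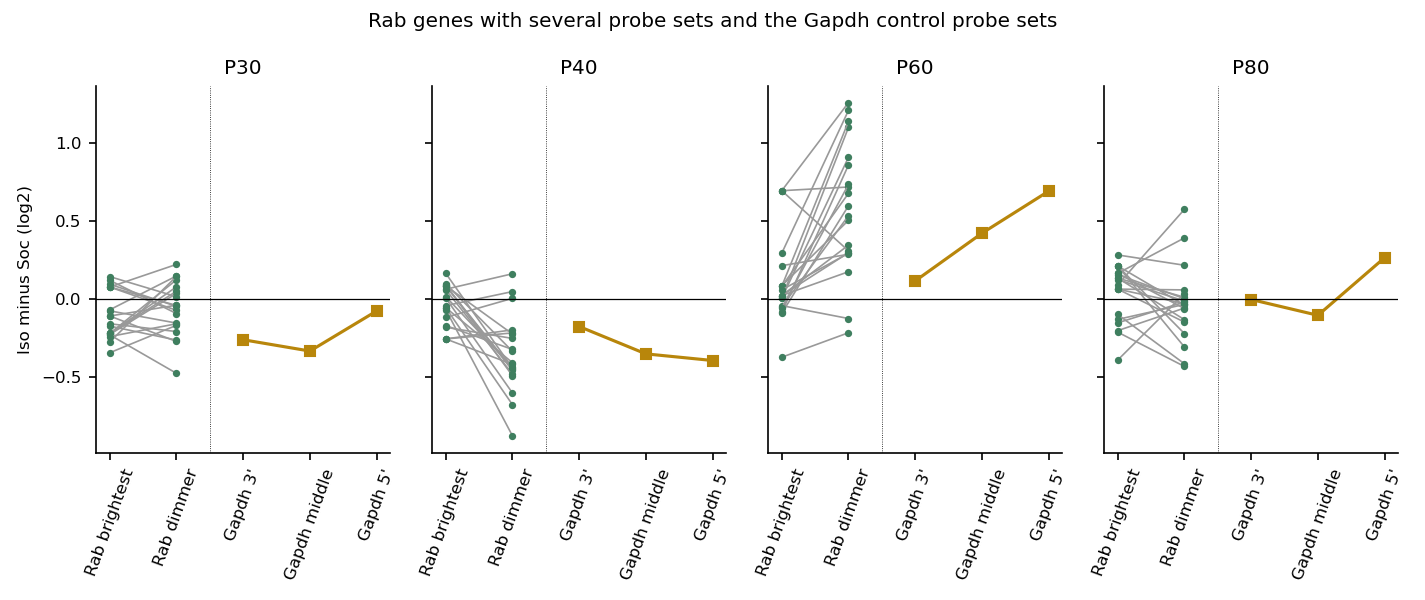
Log2 difference between isolation and social rearing at each age, for the brightest and the dimmer probe sets of 15 Rab genes (green points, joined within a gene) and for the Gapdh control probe sets at the 3' end, middle and 5' end of the transcript (gold squares). Dimmer Rab probe sets move to a median of -0.41 at P40 and 0.56 at P60, and the Gapdh 5' end to -0.39 and 0.69.

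A control for RNA quality moved with these differences. The array carries probe sets for the 3' end, middle and 5' end of Gapdh, and the signal at the 3' end over that at the 5' end rises as RNA is degraded or copied less far. This ratio was 1.52 ± 0.042 in Soc and 1.34 ± 0.064 in Iso at P30, 1.61 ± 0.091 and 1.87 ± 0.097 at P40, 2.03 ± 0.15 and 1.36 ± 0.039 at P60, and 1.89 ± 0.091 and 1.57 ± 0.091 at P80 (SD, n = 6, or 5 in Iso at P30 and P40). The rearings differed at every age (exact two-sided permutation test, p = 0.00216 at P30, P60 and P80, the smallest these group sizes allow, and 0.00433 at P40; 0.00649 and 0.00866 adjusted over 12 ratios of 3 control transcripts and 4 ages). The same ratio of actin was lower in Iso at P30, P60 and P80 (-1.06, -0.80 and -0.69, adjusted p = 0.00866, 0.00649 and 0.0455 by the same exact test) while at P40 it missed the threshold (0.22, exact test, adjusted p = 0.557). That of hexokinase did not pass at P30, P40 or P60 (0.15, 0.37 and 0.23, adjusted p = 0.557, 0.565 and 0.390 by the exact test), and at P80 it was higher in Iso (0.88, adjusted p = 0.0148), opposite to Gapdh and actin. The Gapdh 5' end differed by -0.39 at P40 and 0.69 at P60, in the direction of the dimmer Rab probe sets, and the 3' end by -0.18 and 0.11. Actin and hexokinase shifted at either end. At these 2 ages the actin 3' end differed by -1.17 and 0.58, and its 5' end by -1.24 and 0.84. The hexokinase 3' end differed by -0.66 and 0.82, and its 5' end by -0.75 and 0.71. The mean of dimmer minus brightest over the Rab pairs was -1.97 ± 0.049 in Soc and -2.28 ± 0.061 in Iso at P40, and -2.27 ± 0.049 and -1.80 ± 0.037 at P60. At P80 the same pair of measures did not move together: the ratio was lower in Iso, and the Rab mean was -2.16 ± 0.037 in Soc and -2.23 ± 0.033 in Iso. With the Gapdh ratio as a covariate, 13 of 20 dimmer probe sets were lower and 1 higher at P40 (median -0.46), beside 28.6% lower and 7.78% higher among the dimmer probe sets of all genes in that fit. At P60, 14 were higher and 2 lower (median 0.63), beside 21.9% and 10.6%. The Gapdh ratios of Iso and Soc samples did not overlap at any age (1.30 to 1.40 against 1.92 to 2.33 at P60). The covariate fit therefore rests on the scatter within groups, and RNA quality and rearing cannot be told apart by it. Where on each transcript the Rab probe sets lie was not analysed here.

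**Figure D5:**
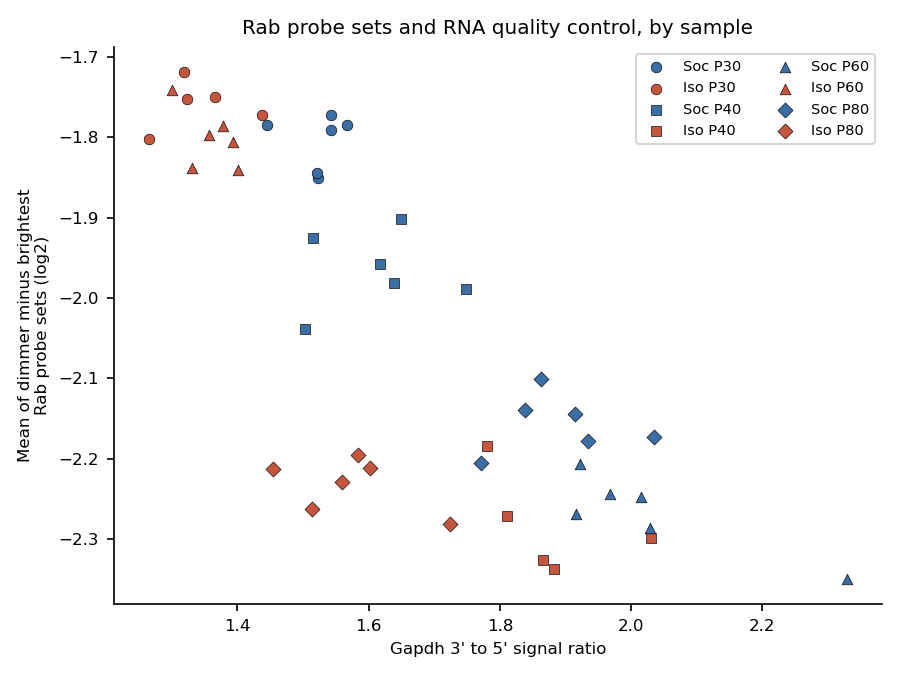
For each of 46 samples, the mean over 20 pairs of dimmer minus brightest Rab probe set (log2, vertical axis) against the ratio of Gapdh 3' to 5' signal (horizontal axis), by group (colour for rearing, shape for age). Iso P60 and both P30 groups lie at low ratios with means of -1.85 or above, Soc P60 and Iso P40 at high ratios with means of -2.18 or below, and Iso P80 at low ratios with means between -2.28 and -2.20.

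The proteins that load, switch off and follow Rabs were read in the same way. Of 98 listed regulators and effectors 60 were measured, and 1 was higher and 7 lower in Iso at P30, 8 and 5 at P40, 11 and 20 at P60, and 15 and 17 at P80, beside the shares of all genes given above. Medians were 0.01, 0.03, -0.03 and 0.01. Of the exchange factors, 5 of 12 were lower and none higher at P60, and 5 were higher and 2 lower at P80. Of the effectors, 6 of 26 were higher and 10 lower at P60, and 4 higher and 11 lower at P80. Rims1, the active zone protein that binds Rab3, was lower in Iso at P40 (-0.66, adjusted p = 1.45e-09) and higher at P60 (0.54, adjusted p = 1.02e-08), the signs that Rab3a had at those ages. Other listed regulators did not share these signs. Madd, an exchange factor, and Rab3gap1, a GTPase activator, were lower at P60 (-0.33 and -0.21, adjusted p = 8.38e-07 and 1.66e-04). Neither passed at P40 (0.09 and 0.04). Rabac1, a Golgi protein that binds prenylated Rabs, was higher at P60 (0.69, adjusted p = 2.99e-17). Evi5, a GTPase-activating protein for Rab11, was lower at P60 (-0.35) and higher at P80 (0.41). Bicd2, the adaptor that links Rab6 to dynein, was lower at P60 (-0.41).

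At P80 Myo5a, the motor that Rab proteins recruit to move recycling endosomes and secretory vesicles, was lower in Iso (-0.87, SE 0.076, adjusted p = 3.84e-13). Gorasp2, a Golgi stacking protein that binds Rab2, was lower at P80 (-0.40) and at P30 (-0.16). Rabggtb, a subunit of the enzyme that prenylates Rabs, was lower at P80 (-0.26), as were Sgsm3 (-0.52) and Rilpl1 (-0.29). Rilpl1 was higher at P60 (0.26), as was Sgsm2 (0.28), which was lower at P30 (-0.26). The other genes of smallest p at P30 were Rab11fip4 (-0.22), Tbc1d10b (-0.24), Dennd5a (-0.18), an exchange factor that also binds Rab6, and Rilpl2 (-0.38). At P40 they were Tbc1d9 (0.23), Tbc1d8 (0.33) and Tbc1d14 (0.24), which carry the domain of Rab GTPase activators, Ocrl (0.39), a phosphatase that binds several Rabs, and Ehbp1 (0.22), an effector of Rab8 and Rab10. Other small GTPases, as a comparison, gave 4 higher and 5 lower of 15 Arf and Arl genes at P60, and 3 and 7 of 17 Ras genes, with medians of -0.01 and -0.08. The difference between these families was not tested.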

How the data were processed

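Biotin-labelled RNA (7 ug total RNA per sample, per the labels' protocols) was hybridised to 1-colour Affymetrix arrays. The deposited values are log2 signals, which the submitters' processing notes credit to MAS5, run by the authors, with the version not given in the sources used here. Trimmed means (2% at either end) showed that the arrays had been scaled, and no normalization was added. MAS5 subtracts local background, so values near the filter are noisy on the log2 scale. The deposited table holds 20304 probe sets that the authors' own filter kept, 55 of them controls. The number of arrays limits the precision.

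Arrays 3 and 4 of Iso P30 lay 0.116 apart (root mean square, log2), 0.488 of their group's median distance, against 0.863 or more for the other pairs within groups, and were averaged. The model was limma 3.58.1 in R 4.3.3: 8 group means with 38 residual degrees of freedom, variances moderated toward an intensity trend, and two-sided p-values adjusted by Benjamini-Hochberg over 12149 probe sets, called under 0.05. It was tested on simulated data. All gene symbols came from the platform annotation, and the 82 Rab probe sets matched RefSeq by gene number with 0 changed symbols. Figures used Python 3.11.15 and matplotlib 3.10.9.

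Rab genes given in full were up to 5 called genes of largest difference at each age, 4 of smallest p for the mean, interaction, P60 against P40 and P80 against P30, 3 of largest difference for other age steps, the Rab3 and Rab27 genes, and genes with probe sets called in opposite directions. Regulators were named up to 6 per age by p. The hexokinase ratio was added to those of Gapdh and actin. Members, roles, lists and tests were chosen with earlier results of these data known. Replicate numbers did not pair the samples: over 22 pairs of same-numbered samples, deviations from group means correlated between -0.0888 and 0.0857, 0 of them over 0.1. Alternatives were quantile normalization, no filter, log2(signal + 16), all 47 arrays apart, the Gapdh ratio as a covariate, a robust variance model, the replicate block, the mean of a gene's probe sets, each sample left out and, chosen after seeing the data, the dimmest probe set and the covariate for dimmer probe sets.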

Additional observations from a re-analysis of the deposited data

Results flagged for a closer look

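Among the named Rab genes, 208 groups of 5 or 6 samples were tested for a single sample far from the others, and 18 were flagged where chance flags about 1 in 20. The farthest relative to its group was Rab6b in Soc P80, where replicate 6 read 10.97 against 10.73 to 10.76 in the others. Replicate 6 of Soc P80 was also high for Rab6a (11.15). Replicate 3 of Soc P40 was low for Rab3a (10.50) and Rab6b (10.66), and replicate 5 of Iso P40 was low for Rab4b (5.81) and Rab40b (8.38) and high for Rab11b (9.97). Replicate 3 of Iso P40 was low for Rab6a (10.84). Replicate 5 of Iso P80 was high for Rab15 (9.34) and Rab6b (10.82). Single samples stood apart for Rab2b, high in Iso P60 (8.63) and low in Iso P80 (8.58), for Rab14 in Iso P60 (9.14), Rab1b in Soc P60 (7.52) and Rab40b in Soc P60 (8.85), all high, and for Rab34 in Soc P40 (6.49), Rab5a in Soc P40 (9.07) and Rab5c in Soc P80 (6.92), all low.

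The rearing difference depended on age by the interaction test (limma, moderated F) with an adjusted p of 7.73e-16 in Rab4a, 3.20e-14 in Rab9b, 3.81e-10 in Rab2b and 1.03e-09 in Rab1b. In Rab4a and Rab9b the sign turned between P40 and P60 and again at P80.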

How the results depend on the processing

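Quantile normalization, no filter, log2(signal + 16) and the robust variance model changed the call or direction of 0 of the 75 gene results, and every total of called Rab genes stayed within 1.5 times, but the split by direction moved with quantile normalization: 8 higher and 7 lower at P30 (against 4 and 10), 7 and 6 at P40 (4 and 7), 4 and 6 from P30 to P40 in Soc (4 and 11), and 7 and 15 from P30 to P80 in Iso (12 and 13). Counts moved farther with the probe set that stands for a gene: at P30 8 (dimmest) and 9 (mean of probe sets) against 14, and from P30 to P40 in Iso 21 and 22 against 11. The mean of probe sets gave 3 higher and 13 lower at P40, 21 and 6 at P60 (12 and 7), 15 and 7 from P40 to P60 in Iso (6 and 9), 6 and 17 from P60 to P80 in Iso (11 and 9), and 6 and 21 from P30 to P80 in Iso; the dimmest gave 3 and 13, 21 and 6, 14 and 7, 6 and 18, and 6 and 23. Leaving out single samples gave counts of 7 to 11 at P40 and 7 to 11 from P30 to P40 in Iso. The replicate block gave 9 Rab genes at P40 against 11 and 15 at P30 against 14, and it changed the call of Rab5a at P40 (adjusted p = 0.0548) and Rab3b at P30 (0.0490), the latter also passing with all 47 arrays counted apart (0.0384). On the dimmest probe set the sign turned for Rab5a at P40 (-0.44), Rab6a at P60 (0.86), Rab14 at P80 (-0.31), Rab15 at P30 (0.14) and P80 (0.033), Rab3a over the ages (0.17), and in Soc from P30 to P80 for Rab11a (0.27) and Rab2b (-0.19). With the mean of probe sets it turned for Rab5a (-0.14), Rab6a (0.38), Rab14 (-0.090), Rab3a over the ages (0.040) and Rab11a (0.018). These 2 settings use other probe sets by construction. With the Gapdh covariate 5 were higher and 6 lower at P30 and 8 and 8 at P40, and the sign turned for Rab3a at P80 (0.056) and over the ages (0.053), Rab6a at P60 (0.16) and Rab6b over the ages (0.055), and 10 further gene results no longer passed. The Gapdh ratio did not overlap between rearings at any age, so this fit cannot tell RNA quality and rearing apart. The cause was not tested. Low signal limits Rab8b, Rab7b, Rab27b and Rab36, whose values lie near or under the filter.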
